A study of Mus musculus with 6 samples.

Results

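HCN and K2P channel genes were measured in dorsal root ganglia, which hold the cell bodies of sensory neurons together with glia, of WT and dt27J mice. The set was fixed by name as 8 genes whose products help set the resting potential of a neuron, of 17178 gene symbols with a probe on the array. It holds 3 HCN genes (Hcn2, Hcn3 and Hcn4) and 5 K2P genes (Kcnk1, Kcnk2, Kcnk3, Kcnk10 and Kcnk18). Probes were found through the RefSeq transcript that each probe is named for. This gave 9 probes for 7 of the 8 genes, with Hcn4 and Kcnk3 measured by 2 probes each. Kcnk18, which encodes the TRESK channel of sensory neurons, matched no probe and was not analysed here. RefSeq lists Hcn4 as an older name of Hcn3 and the reverse, and the names used here follow the transcript accession.

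The study compared 3 WT and 3 dt27J animals on the C57BL/6 background at postnatal day 4, with 1 single-colour Agilent array for each animal. The dt27J mouse carries an allele of Dst, the gene for the cytoskeletal linker dystonin, and the series calls this age pre-phenotype. The WT animals were littermate controls. The animals came from 2 litters. The labels carry 2 dates, each the scan day of 1 slide: the first covers replicates 1 and 2 of both genotypes, and the second covers replicate 3 of both. The labels give neither sex nor the number of copies of the allele, and they do not tie a date to a litter.

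HCN channels are opened by hyperpolarisation and by cyclic AMP, and they pass an inward cation current that depolarises the cell and lets it fire repeatedly. In sensory neurons this current is known for its part in the excitability of injured and inflamed nerve. K2P channels are potassium leak channels with tandem pore domains, open near rest and holding the membrane negative. The TREK channels among them are gated by stretch, heat and lipids and the TASK channels by external acid, and both groups are targets of volatile anaesthetics.

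A single member passed the test, and it went up: Kcnk2 rose in dt27J ganglia to 244% of the WT signal. The other 8 probes, those of Hcn2, Hcn3, Hcn4, Kcnk1, Kcnk3 and Kcnk10, had negative differences from -0.17 to -1.50 on the log2 scale, and 0 of them passed. Of these, 2 probes, the dimmer Hcn4 probe at -1.50 and that of Kcnk10, entered the test through WT alone, where they were higher. Their sign depends in part on that filter. The test was limma's moderated test over all 26248 tested probes with the date as a block and Benjamini-Hochberg adjustment, and a call is an adjusted p under 0.05. By that rule 3.08% of all tested probes were called, 1.29% higher and 1.79% lower in dt27J, against 1 of the 9 member probes higher and 0 lower. An unadjusted p under 0.05 was reached by 6 of the 9 member probes, the dimmer Hcn4 probe among them, and by 7247 of all 26248 tested probes. The genotypes did not overlap on 5 of the 9 probes, with dt27J below WT on 4 and above on 1; over all tested probes 28.7% did not overlap, 15.8% with dt27J below and 12.9% with dt27J above. The median difference over all tested probes was -0.046, and 53.3% of them had a negative difference.

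Levels are given as log2 of the processed signal minus log2 of the 75th percentile of the same array, so that 0 is the 75th percentile itself. They compare arrays for 1 probe and do not rank probes. All 9 probes were well above background on all 3 WT arrays, by the scanner software's call, and 7 were so on all 6 arrays. The dimmer Hcn4 probe and the Kcnk10 probe were well above background on 1 of 3 dt27J arrays, and they entered the test through WT alone.

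The sequence upstream of the start sites is shown for the gene that was called, Kcnk2, and for Hcn2 and Hcn4, both with negative differences. They come from a RefSeq table of build GRCm38.p6, which held an entry for 6 of the 8 genes. Each sequence is the 250 bases before an annotated start, 5′ to 3′ on the strand of the gene, with every GC box (GGGCGG or its reverse complement CCGCCC, overlaps counted) in capitals.
Hcn2, chr10:79716384-79716633, plus strand: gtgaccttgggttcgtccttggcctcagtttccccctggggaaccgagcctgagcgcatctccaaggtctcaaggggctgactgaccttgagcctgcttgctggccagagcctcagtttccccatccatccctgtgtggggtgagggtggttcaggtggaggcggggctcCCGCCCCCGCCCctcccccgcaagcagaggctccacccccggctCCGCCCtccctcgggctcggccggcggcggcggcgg
Hcn4, chr9:58822699-58822948, plus strand: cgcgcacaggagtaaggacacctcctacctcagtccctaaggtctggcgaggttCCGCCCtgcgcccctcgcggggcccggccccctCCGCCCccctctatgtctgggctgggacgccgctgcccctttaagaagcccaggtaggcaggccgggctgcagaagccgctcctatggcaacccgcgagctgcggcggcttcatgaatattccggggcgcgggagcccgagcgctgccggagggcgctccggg
Kcnk2, outermost of 4 starts, chr1:189402274-189402523, minus strand: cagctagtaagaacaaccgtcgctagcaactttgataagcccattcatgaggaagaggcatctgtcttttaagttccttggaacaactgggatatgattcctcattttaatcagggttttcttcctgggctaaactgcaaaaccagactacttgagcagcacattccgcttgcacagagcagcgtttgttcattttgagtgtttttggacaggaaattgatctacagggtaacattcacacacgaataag
Kcnk2, the third start, chr1:189343708-189343957, minus strand: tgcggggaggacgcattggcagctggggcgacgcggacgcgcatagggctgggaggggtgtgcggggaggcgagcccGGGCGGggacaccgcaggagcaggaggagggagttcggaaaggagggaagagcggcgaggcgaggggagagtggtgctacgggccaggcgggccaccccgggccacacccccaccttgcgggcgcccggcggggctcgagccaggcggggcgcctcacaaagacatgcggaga

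The Hcn2 window held 3 GC boxes and the Hcn4 window 2, and bases G and C made up 70.4% and 71.2% of them. Of the 4 Kcnk2 windows only the third start held a GC box, and their share of G and C ran from 42.4% at the outermost start to 74.4% at the third. A GC box was present in 32.7% of all 32851 windows of this length, and the median share of G and C in them was 52.4%. No TATA box (TATAAA or TTTATA) was found in any of these 3 genes' windows, against 12.4% of all windows. The core of the cyclic AMP response element (TGACG or CGTCA) was absent from them as well, against 17.8%. Kcnk1 and Kcnk10, which also had negative differences, have windows that are not printed here. The Kcnk1 window held 0 GC boxes, and the Kcnk10 windows held 1 at the first start and 0 at the second. Their share of G and C ran from 44.4% in Kcnk1 to 64.0% at the second Kcnk10 start. A link between these letters and the direction of a difference was not tested. A match is a description of the letters only, and which Kcnk2 start the array's transcript uses was not determined here.

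Hcn2 encodes the fast, strongly cyclic AMP-sensitive HCN subunit of small sensory neurons. The Hcn2 probe stood at -0.77, -0.94 and -1.73 in WT 1, WT 2 and WT 3. It stood at -2.46, -1.46 and -2.74 in dt27J 1, dt27J 2 and dt27J 3. The dt27J arrays lay below the WT arrays of their own date, and the groups overlapped only because WT 3 was below dt27J 2. The mean went from -1.15 ± 0.51 in WT to -2.22 ± 0.68 in dt27J (SD, n = 3 each). The difference was -1.07 (SE 0.29, 95% interval -1.76 to -0.38), or 47.6% of the WT signal, and it did not pass (adjusted p = 0.0775, limma). It was nearly the same within both dates, at -1.10 in the first and -1.02 in the second. These are whole ganglia, in which fewer cells of a type and less RNA per cell cannot be told apart.

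Hcn3 encodes an HCN subunit with little response to cyclic AMP. Its probe read 3.22, 3.17 and 4.11 in the WT animals and 2.53, 2.64 and 2.82 in the dt27J animals. The groups did not overlap, WT 3 was the highest array and the dt27J arrays lay close together. The mean was 3.50 ± 0.53 in WT and 2.66 ± 0.14 in dt27J (SD, n = 3 each), a difference of -0.84 (SE 0.22, 95% interval -1.36 to -0.31; adjusted p = 0.0748, limma). The difference was -0.61 within the first date and -1.29 within the second. With the authors' deposited values it stood at -0.81 and passed (adjusted p = 0.0431, limma).

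Hcn4 encodes the slow HCN subunit best known from the pacemaker cells of the heart. Its brighter probe read -2.80, -2.90 and -3.10 in WT and -3.56, -3.48 and -3.17 in dt27J. The dt27J arrays were all lower, although dt27J 3 lay just under WT 3. The pooled difference was -0.47 (SE 0.21, adjusted p = 0.208, limma), with -0.67 in the first date and -0.07 in the second. The dimmer probe read -4.44, -4.88 and -5.54 in WT against -7.58, -6.48 and -5.30 in dt27J. Its processed signal was between 10.2 and 20.9 in WT, and at 2.6 and 3.85 on the 2 dt27J arrays that were not well above background. Its pooled difference of -1.50 (SE 0.57, adjusted p = 0.152, limma) was made of -2.37 in the first date and 0.24 in the second. With the authors' deposited values the Hcn4 probes stood at -0.28 and -0.24.

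**Figure D1:**
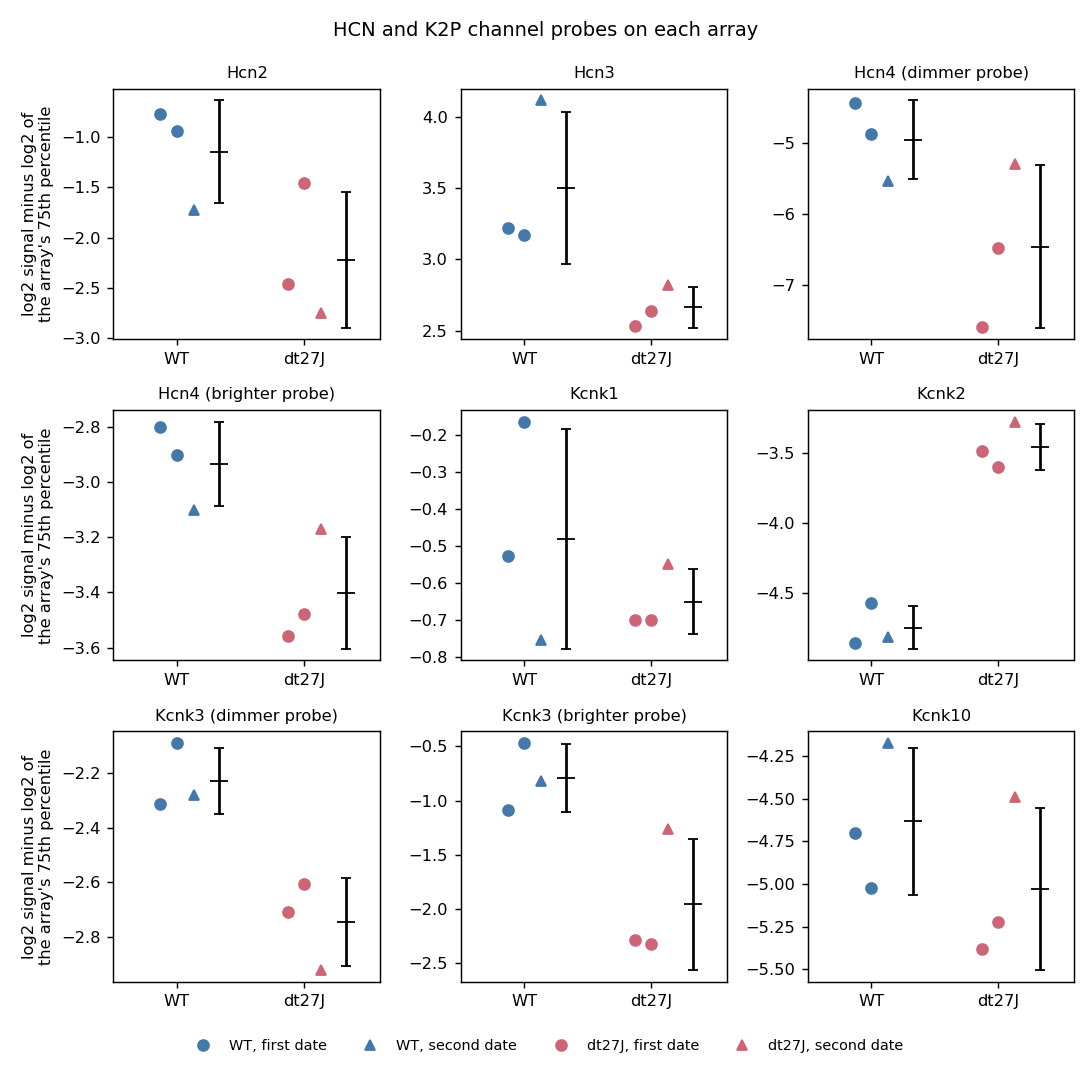
Each panel is a probe and each point an array, as log2 signal minus log2 of the array's 75th percentile on the vertical axis; bars are the mean and SD of 3 arrays, circles the first date and triangles the second, and the axes differ between panels. For Kcnk2 the dt27J points lie between -3.60 and -3.28 and the WT points between -4.86 and -4.57.

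Kcnk2 encodes TREK1, a mechanically and thermally gated K2P channel found in small sensory neurons. Its probe read -4.86, -4.57 and -4.81 in WT and -3.49, -3.60 and -3.28 in dt27J. Each group was tight and the groups lay apart on both dates. In processed signal this was 15.7 to 19.3 in WT and 28.2 to 56.0 in dt27J, dim values that were nonetheless well above background on all 6 arrays. The mean rose from -4.75 ± 0.15 to -3.46 ± 0.17 (SD, n = 3 each). The rise was 1.29 (SE 0.20), a 2.44-fold increase with a 95% interval of 1.74 to 3.42 (adjusted p = 0.0451, limma), and it ranked at place 263 of all tested probes by p. Within the first date the rise was 1.17 and within the second 1.53, and the test of the difference between the dates gave an adjusted p of 0.518 (limma interaction).

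The size of the Kcnk2 rise differed between versions of the signal. It stood at 0.73 with the authors' deposited values (adjusted p = 0.0472, limma). It stood at 0.22 after normexp correction of the median signal with an added offset of 50 (adjusted p = 0.527, limma). The part of the offset in that value was not tested. The rise was 0.34 when normexp was run with the local background of 46 bright-background spots replaced, which was added after seeing the data (adjusted p = 0.260, limma). The call was also lost when the date was left out of the model (0.0595), when dim probes were kept (0.0953), and without WT 1 (0.248), WT 2 (0.158), dt27J 1 (0.182) or dt27J 2 (0.0827), with the rise between 1.24 and 1.41 in those 4 fits. The call was kept under 9 of 19 alternatives, and the direction was the same under all 19. Leaving out either second-date array gives the same fit as the first date alone, and that fit is counted under each of its names.

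**Figure D2:**
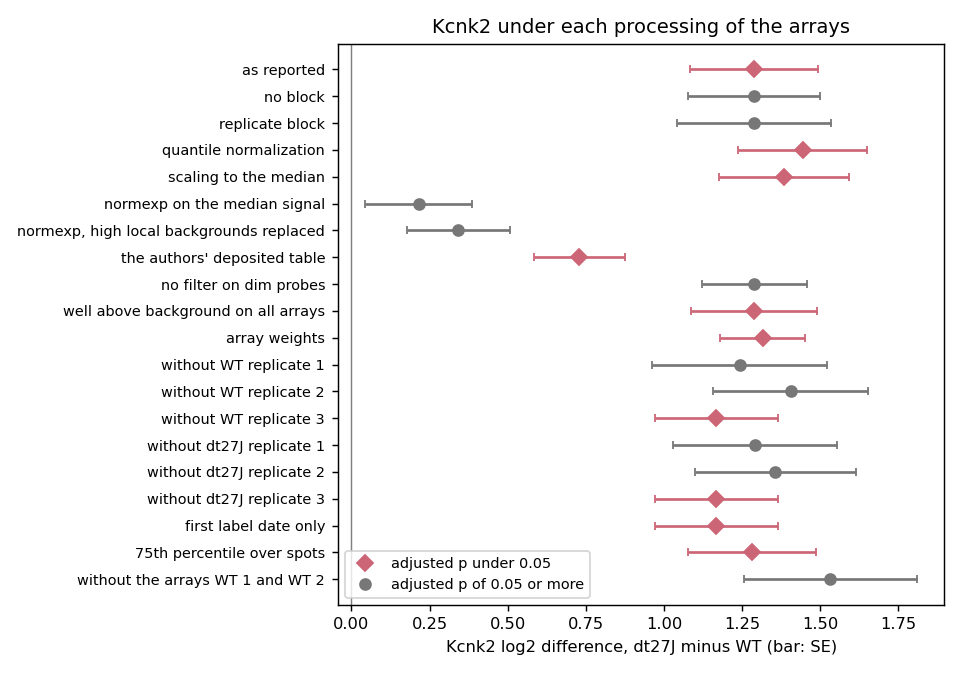
The horizontal axis is the log2 difference of Kcnk2, dt27J minus WT, under each processing named on the vertical axis, with the SE as a bar; red diamonds have an adjusted p under 0.05. Both normexp values, 0.22 and 0.34, lie nearest to 0, and the other points lie between 0.73 and 1.53.

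Kcnk10 encodes TREK2, the closest relative of TREK1, and its probe did not share the Kcnk2 pattern. It read -4.70, -5.02 and -4.17 in WT and -5.38, -5.22 and -4.49 in dt27J, so that the groups overlapped and both second-date arrays were high. The difference was -0.40 (SE 0.20, 95% interval -0.87 to 0.08; adjusted p = 0.246, limma), with -0.44 in the first date and -0.32 in the second. It rests on a dim probe, with a processed signal from 9.19 to 26.3.

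Kcnk3 encodes TASK1, the acid-sensitive leak channel. Its brighter probe read -1.09, -0.47 and -0.82 in WT and -2.29, -2.33 and -1.26 in dt27J. All dt27J arrays were below all WT arrays, with dt27J 3 the nearest to WT. The mean was -0.79 ± 0.31 in WT and -1.96 ± 0.61 in dt27J (SD, n = 3 each). The difference was -1.17 (SE 0.30, 95% interval -1.88 to -0.45; adjusted p = 0.0722, limma), or 44.6% of the WT signal. It was -1.53 in the first date and -0.44 in the second. The interaction with date had an unadjusted p of 0.048 and an adjusted p of 0.178 (limma).

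The dimmer Kcnk3 probe, which carries the same transcript accession, gave a smaller value. It read -2.31, -2.09 and -2.28 in WT and -2.71, -2.60 and -2.92 in dt27J, again with no overlap. The difference was -0.52 (SE 0.19, adjusted p = 0.144, limma), with -0.46 in the first date and -0.64 in the second. The 2 Kcnk3 probes thus agreed in sign on both dates and differed by 0.65 in the pooled value.

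Kcnk1 encodes TWIK1, a weakly conducting leak channel of neurons and glia. It read -0.53, -0.16 and -0.75 in WT and -0.70, -0.70 and -0.55 in dt27J, and the groups overlapped. The difference was -0.17 (SE 0.22, 95% interval -0.70 to 0.36; adjusted p = 0.649, limma), with -0.36 in the first date and 0.20 in the second.

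**Figure D3:**
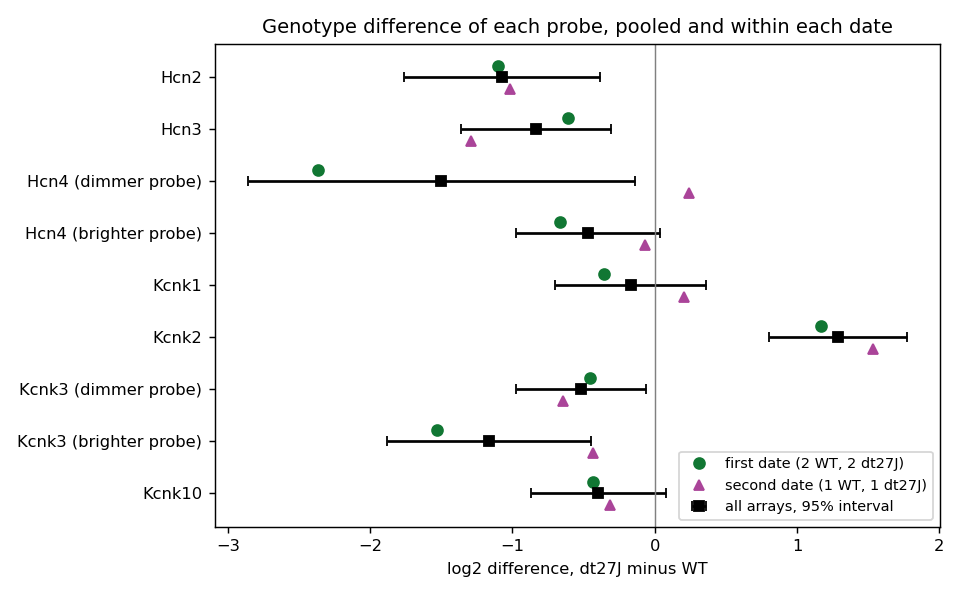
Black squares are the pooled log2 difference, dt27J minus WT, with the 95% interval of the limma fit, and circles and triangles are the first and the second date on the horizontal axis, for each probe on the vertical axis. Hcn2, Hcn3, the brighter Hcn4 probe, Kcnk2, both Kcnk3 probes and Kcnk10 keep their sign in both dates. Kcnk1 and the dimmer Hcn4 probe lie at 0.20 and 0.24 in the second.

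Within the dates, 6 of the 9 probes were negative in both, Kcnk2 was positive in both, and Kcnk1 and the dimmer Hcn4 probe changed sign. Of all tested probes 0.85% had a difference that depended on date at an adjusted p under 0.05, and 0 of the 9 member probes did (limma interaction). The smallest of their unadjusted interaction p values was 0.00897, for the dimmer Hcn4 probe. The date itself moved no member past the threshold, the nearest being Kcnk10, higher by 0.75 on the second date (adjusted p = 0.250, limma), where 0.107% of all tested probes passed.

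Dst fell on all 3 of its probes (adjusted p 0.0328 to 0.0461, limma). It went to 15.6% of WT on the probe that was well above background on all 6 arrays, while the other probes were so on 2 of 3 dt27J arrays. Of 18 sensory neuron markers 16 were tested, 1 was called lower, 14 were negative and the median was -0.66, and their summed signal was 1038 to 1161 in WT and 752 to 969 in dt27J, in units of the 75th percentile. Of 12 spinal cord markers 9 were tested, and Gad2, Slc6a5 and Mog were too dim. The summed signal of those 9 was 29.5 and 22.9 in WT 1 and WT 2, 1.84 in WT 3 and 0.87 to 1.07 in dt27J. All 9 were negative, with a median of -2.92, of -4.39 in the first date and of 0.015 in the second. Several of the 9, Pax2 among them, were well above background on 2 of 3 dt27J arrays and entered the test through WT alone. The count of negatives depends in part on that filter. All 12 skeletal muscle markers were tested and all 12 were positive, with 4 called higher. Their median was 1.66, with 2.35 in the first date and 0.26 in the second. Their summed signal was 21.0 to 71.7 in WT and 66.7 to 131 in dt27J. All 8 endothelial markers were positive, Tek rose (1.64, adjusted p = 0.0476, limma), and the sum was 14.6 to 20.6 in WT and 20.8 to 37.9 in dt27J. Their median was 0.73, with 0.79 in the first date and 0.69 in the second.

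The second date therefore compares 1 WT and 1 dt27J animal that both had little spinal cord signal. There Hcn2 stood at -1.02, Hcn3 at -1.29, the Kcnk3 probes at -0.44 and -0.64, Kcnk10 at -0.32 and Kcnk2 at 1.53, beside a median of -0.45 for the sensory neuron markers and of -0.14 for all tested probes. The brighter Hcn4 probe stood at -0.07 there. Leaving out WT 1 and WT 2 in the fit, which was added after seeing the data, gives these same values, since it compares WT 3 with dt27J 3 alone. Other marker lists had positive medians beside the Kcnk2 rise. Of 11 tested satellite glia and Schwann markers 3 were called higher and 6 were positive, with a median of 0.14, of 0.26 in the first date and of 0.78 in the second, and a summed signal of 353 to 539 in WT and 389 to 432 in dt27J. Of 7 macrophage markers 1 was called higher and 6 were positive. Their median was 0.48, with -0.13 in the second date, and their summed signal was 7.62 to 7.90 in WT and 8.10 to 15.5 in dt27J. All 8 fibroblast markers were positive (median 0.86, -0.05 in the second date). So were 6 of 8 pericyte and smooth muscle markers (median 0.80, 0.19 in the second date), with 0 called in either list. All 5 tested erythroid markers were positive with 0 called (median 0.30, -0.35 in the second date). The part of these cells, of vessels and of muscle in the Kcnk2 value was not tested.

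**Figure D4:**
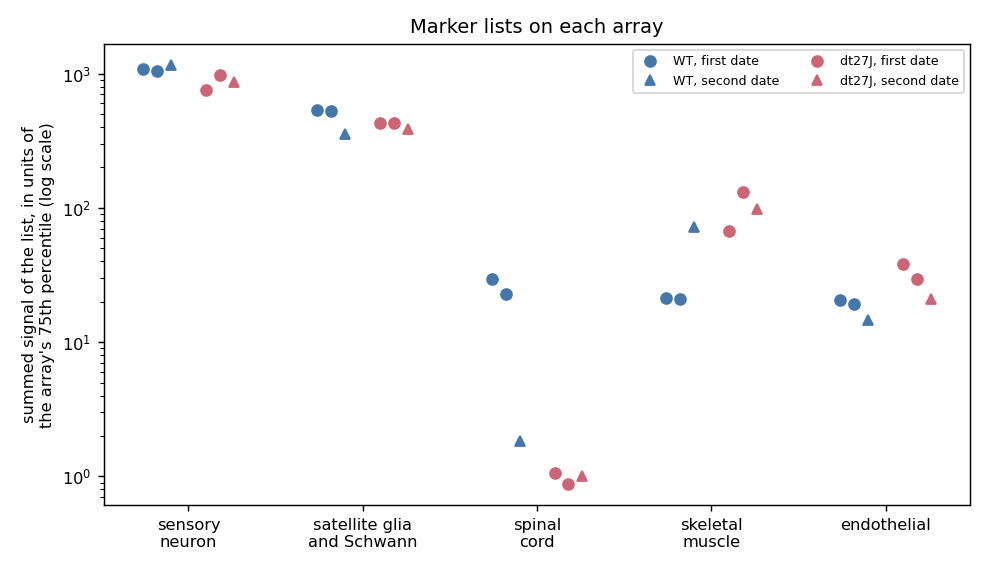
The vertical axis, on a log scale, is the summed signal of each marker list in units of the array's 75th percentile, with a point for each array, circles for the first date and triangles for the second. WT 1 and WT 2 stand apart in spinal cord signal, at 29.5 and 22.9, and the other 4 arrays lie between 0.87 and 1.84.

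The other HCN and K2P genes gave no call among 6 tested, with 4 negative and 2 positive differences and a median of -0.37. Kcnk4, which encodes TRAAK, the third channel of the TREK group, stood at -0.81 (SE 0.20, adjusted p = 0.0684), with -0.75 and -0.95 within the dates and no overlap. The widest difference was on Kcnk12, a THIK channel gene, at -2.20 (SE 0.51, adjusted p = 0.0613), with -2.69 in the first date and -1.23 in the second. Its relative Kcnk13 stood at -0.15. Kcnk6, a relative of Kcnk1, stood at 1.15, with 1.70 in the first date and 0.05 in the second, and Kcnk5 at 0.05. Kcnk7, Kcnk9, Kcnk15 and Kcnk16 matched no probe.

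Among 8 tested inward rectifier genes, whose channels also hold the membrane near the potassium potential, Kcnj12 fell. It read 0.55, 0.40 and -0.48 in WT and -1.90, -1.55 and -1.46 in dt27J. The fall was 1.80 on the log2 scale (SE 0.30, adjusted p = 0.0462, limma), with all dt27J arrays below all WT arrays, and the differences within the dates were -2.20 and -0.99. It lost the call when the date was left out of the model (0.0595), with the replicate number as the block (0.113), when dim probes were kept (0.0958) and after normexp (0.0593). It also lost it without WT 1 (0.248), WT 2 (0.159), dt27J 1 (0.182) or dt27J 2 (0.0909), and without both WT 1 and WT 2. The call was kept under 10 of 19 alternatives, with the first-date fit again counted under each of its names. Kcnj11, the pore of the ATP-sensitive channel, stood at -1.52 (adjusted p = 0.0613). Kcnj16 stood at -2.47, with -3.80 in the first date and 0.19 in the second, beside spinal cord marker medians of -4.39 and 0.015 on those dates. Kcnj10, the rectifier of satellite glia, stood at 0.59 (adjusted p = 0.112) and was higher on every dt27J array. The list had 6 negative and 2 positive differences and a median of -0.75.

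Sodium enters at rest through the NALCN complex and is pumped out by the sodium pump. The Nalcn probe was too dim to test. Unc79, a large subunit of the complex, stood at -0.81 (adjusted p = 0.114) and Fam155a, its chaperone subunit, at -0.40 (adjusted p = 0.237). Of 9 sodium pump subunits 0 were called, 7 were negative and the median was -0.44. The beta subunit Atp1b2 stood at -1.12 (adjusted p = 0.112), and the gamma subunit Fxyd2 at -0.84 with the smallest adjusted p of the list (0.0585, limma).

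Of 9 tested partner proteins of HCN and K2P channels 0 were called and the median was -0.12. Pex5l, the HCN auxiliary subunit TRIP8b, stood at 0.10 (SE 0.29), with 0.49 in the first date and -0.68 in the second. Akap5, the kinase anchor that binds TREK channels, stood at -1.11 (adjusted p = 0.0646), and the TASK partner S100a10 at -0.16. The filamin gene Flna stood at 0.65 with -0.07 in the second date. Over all 7 lists of other resting-potential genes, 1 of 50 tested genes was called lower and 0 higher, with 34 negative and 16 positive differences and a median of -0.28. Over all tested probes 53.3% of differences were negative.

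**Figure D5:**
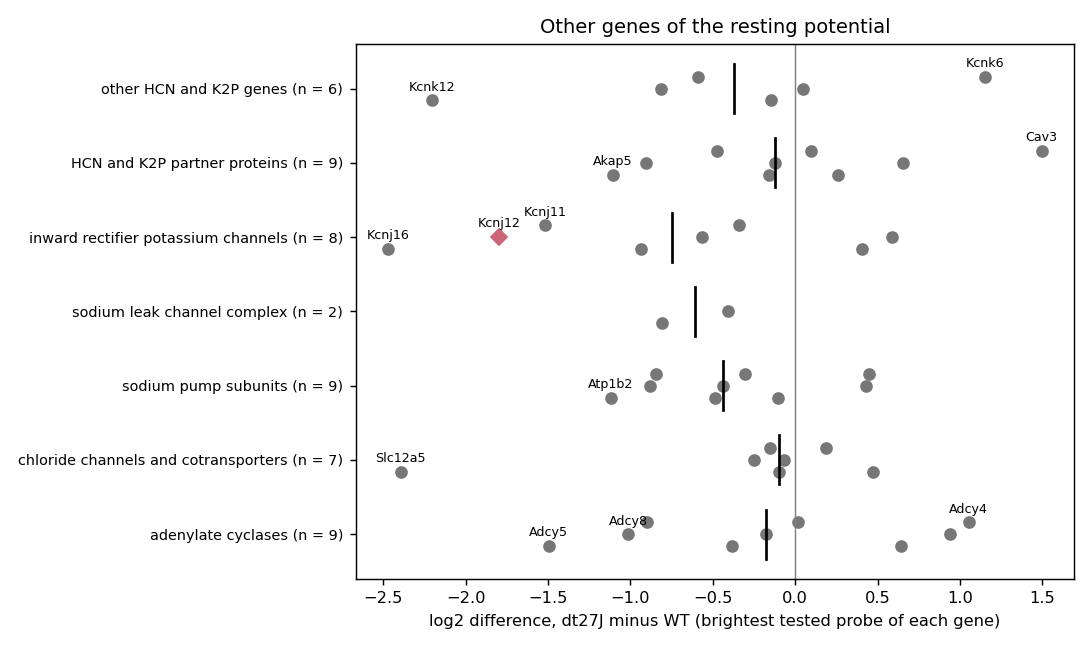
Each point is the brightest tested probe of a gene, placed on the horizontal axis by its log2 difference, dt27J minus WT, in lists named on the vertical axis; black bars are list medians and the red diamond, Kcnj12 at -1.80, has an adjusted p under 0.05. All list medians are below 0, from -0.10 to -0.75.

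The genes whose 6 array values most resembled each member were taken by Pearson's correlation over the 6 arrays, among 13675 tested symbols, as a description; with so many symbols and so few arrays, high values arise for any pattern. For Kcnk2 they were Hhip (r = 0.997), Tfdp1 (0.995) and Atad2 (0.994), and of these Hhip rose (1.47, adjusted p = 0.0422, limma). For Hcn3 they were Crtam (0.998), Fstl4 (0.996) and Nsdhl (0.995), and for Hcn2 Atp6v0e2 (0.995), Adgrb3 (0.994) and Hk1 (0.994). For Hcn4 they were Pde1c (0.998), Il18bp (0.993) and Rarg (0.993), and for Kcnk3 Adgrd1 (0.999), Uba1 (0.998) and 2310061I04Rik (0.997). Kcnk10 was most like Pde10a (0.996), Lrrc1 (0.996) and Akirin2 (0.995), and Kcnk1 like Ddit4l (0.988), Ripk4 (0.986) and Glrx5 (0.984). Hhip was the only one of these genes that passed the test.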

How the data were processed

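RNA was labelled with Cy3, per the labels' protocols. The authors extracted the deposited spot intensities with Agilent Feature Extraction 10.5.1.1, per the submitters' processing notes. The processed signal is background-subtracted within the array, unscaled between arrays and written to 3 significant digits. The series table deposited by the authors is on a log2 scale, and its values track the scanner values centred on each probe's median (r between 0.928 and 0.941 over 26248 probes, slopes 0.71 to 0.76, column medians -0.0042 to 0.0053); its background handling and scaling are not given in the sources used here.

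Control spots and spots called outliers were left out and repeated spots averaged. Log2 processed signals were scaled to the array's 75th percentile over non-control probes, a signal between 343 and 543. The test took the 26248 of 41174 probes that the scanner software called above background in every WT or every dt27J array; no probe was saturated. By that call 63.1% to 71.4% of probes were detected per array. The number of arrays limits the precision. Probes were named by accession through RefSeq of GRCm38.p6 (24844 probes). The array design is of build mm9, so gene coordinates are not given, and promoter coordinates are those of the RefSeq sequence table.

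All probes were fitted with limma 3.58.1 in R 4.3.3, with genotype and date as terms, 3 residual degrees of freedom and 3.76 from the prior, and a second fit added their interaction. Errors are standard errors of the fit unless an SD is named. The fit was tested on simulated data with the same spread for every probe, no interaction, and planted changes larger than that of Kcnk2. That setting is simpler than these arrays. Lists use the brightest tested probe of each gene. Every member probe is reported; of the other resting-potential lists any gene may be named, of marker lists the 3 with the smallest p and the brightest. The members and lists were chosen with earlier results of these data known. Deviations of same-numbered animals from their genotype means had correlations of 0.22, -0.15 and 0.06. With 3 arrays in each genotype these values cannot settle whether the number pairs animals. The reported fit did not use the number as a block, and a fit with it is among the alternatives. Alternatives changed the block, scaling, background, filter, weights and arrays. Values of a few listed genes are not reported here.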

Additional observations from a re-analysis of the deposited data

Results flagged for a closer look

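The genotype difference pointed in opposite directions on the dates for a pair of member probes, with every dt27J array on the same side of the WT arrays of its date. On the dimmer Hcn4 probe the difference was -2.37 in the first date and 0.24 in the second (interaction 2.61, SE 0.68, unadjusted p = 0.00897, adjusted p = 0.0911, limma), and dt27J 1 and dt27J 2 were not well above background there. For Kcnk1 it was -0.36 and 0.20 (interaction 0.56, SE 0.36, adjusted p = 0.348, limma). Neither interaction passed the threshold, and the second date holds 1 array of each genotype.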

How the results depend on the processing

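The counts of calls changed with most settings. Against 809 tested probes called, the count was 14 without the block, 2 with the replicate block, 382 after normexp, 1398 with high local backgrounds replaced, 0 without a filter on dim probes (8400 at an unadjusted p under 0.05), 12169 with array weights, whose estimation stopped before convergence, 6764 on the first date alone, and 0 without WT 1 and WT 2. That last fit compares 1 array with 1 and takes its spread from 1 residual degree of freedom, between dt27J 1 and dt27J 2, so its p values say nothing about stability. With the replicate block Kcnk2 and Kcnj12 both had an adjusted p of 0.113, and without WT 1 and WT 2 of 0.200 and 0.219 (limma). Leaving out 1 array gave 0 (without WT 2 or dt27J 1, with 4954 and 4445 at an unadjusted p) to 6764 (without WT 3 or dt27J 3, which leaves the first date), with 1 without WT 1 and 168 without dt27J 2.

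The count of member probes called higher, 1 as reported, was 0 without the block, with the replicate block, after both normexp settings, without the filter and without WT 1 and WT 2, and 0 to 1 when 1 array was left out. The count called lower, 0 as reported, was 1 with the authors' deposited table (Hcn3), 1 after normexp with replaced backgrounds (Hcn3), 6 with array weights, 3 on the first date alone (Kcnk3 and both Hcn4 probes) and 0 to 3 when 1 array was left out. Without WT 1 and WT 2 the dimmer Hcn4 probe stood at 0.24 and Kcnk1 at 0.20, both reversed. The other member probes kept their sign under every alternative run. Of all calls, 471 were lower and 338 higher as reported, 440 and 537 after quantile normalization, 404 and 595 after scaling to the median, 561 and 614 with the authors' deposited table, and 99 and 283 after normexp. Scaling moved the median of all tested probes from -0.046 to between -0.053 and 0.049. The cause of these shifts was not tested. Dim probes (Kcnk2, Kcnk10 and the dimmer Hcn4 probe) are limited by signal over background.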

Other observations

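Adenylate cyclases, which make the cyclic AMP that opens HCN channels, went both ways in dt27J ganglia, with 5 negative and 4 positive differences among 9 tested genes and 0 calls (limma, 5 at an unadjusted p under 0.05). Adcy5 stood at -1.50 (SE 0.33, adjusted p = 0.0573), Adcy8 at -1.01 (adjusted p = 0.0695) and Adcy1 at -0.90 (adjusted p = 0.0678). Adcy4 stood at 1.05 (SE 0.21, adjusted p = 0.0503) and Adcy6 at 0.94 (adjusted p = 0.0690), and both were higher on every dt27J array. These 5 kept their sign in the second date, from -0.60 for Adcy5 to 0.98 for Adcy6, as did Adcy9 (-0.38, and -0.81 in the second date). The other 3 changed sign between the dates: Adcy2 was at 0.62, Adcy3 at 0.89 and Adcy7 at -0.24 in the second.

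Chloride cotransporters set the chloride gradient. Of 7 tested genes for these cotransporters and for chloride channels, 0 were called (limma, 2 at an unadjusted p under 0.05, median -0.10). Slc12a5, the chloride exporter KCC2 of central neurons, stood at -2.39 (SE 0.64, adjusted p = 0.0758), with -3.51 in the first date and -0.16 in the second, beside the spinal cord markers at medians of -4.39 and 0.015. Slc12a2, the chloride importer NKCC1 of sensory neurons, stood at 0.19 (SE 0.48), with -0.61 and 1.78 within the dates. The calcium-activated channel gene Ano1 stood at 0.47 (SE 0.18, adjusted p = 0.157), positive in both dates.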
